A study of Arabidopsis thaliana with 208 samples.

Results

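Root hair genes were followed in the roots of 9-day-old Arabidopsis thaliana seedlings grown on 1 or 10 mM KNO3. The set holds 10 genes, chosen by name and locus, of the 33602 loci listed for every library: RHD6 (AT1G66470), RSL4 (AT1G27740), RHD2 (AT5G51060), COBL9 (AT5G49270), EXPA7 (AT1G12560), EXPA18 (AT1G62980), LRX1 (AT1G12040), PRP1 (AT1G54970), PRP3 (AT3G62680) and RHS19 (AT5G67400). The choice was made with earlier results of these data known, so counts of these genes beside shares over all genes are a description. All 10 passed the filter on low counts, which left 19664 genes for testing. The seedlings were the wild type Col and 12 lines in each of which foreign T-DNA sits at some place in the genome: SALK_146141, SALK_100002, SALK_094437C, SALK_085964C, SALK_070847C, SALK_035980, SALK_015182, SALK_012253, SAIL_1207_H04, GABI_868_E02, GABI_699B09 and GABI_513E07. The labels name these lines and not the interrupted genes. Each line was grown at both concentrations with 4 biological replicates, each combining the seedlings of 2 plates, so there were 52 libraries per concentration. Both media held the same 10 mM KCl besides the KNO3, so potassium rose together with nitrate.

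A root hair is a single tubular outgrowth of an epidermal cell, and it lengthens only at its tip. Basic helix-loop-helix transcription factors start the outgrowth and drive its growth, and below them act enzymes and structural proteins that loosen, crosslink and rebuild the wall at the tip. Root hairs widen the surface through which roots take up water and nutrients, and their number and length are known to respond to nutrient supply.

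Total counts per library, both runs summed, ran from 3981966 to 13695037 (median 8330750). BRAD-seq DGE counts transcripts by tags close to their 3′ ends, and levels are given as CPM, tag counts scaled to the total of the library with TMM factors. Such levels are compared between libraries and not between genes. The titles carry a number after "str", read here as the strip in which libraries were prepared, which the labels do not spell out, and it splits the libraries into 13 strips of 8. Both concentrations shared a strip in 3 of them, and the others carried either 1 mM (5 strips) or 10 mM (5 strips). Most of the contrast between the concentrations therefore cannot be told apart from strips, which holds for the other gene lists below as well. The log2 ratios of the means within the 3 mixed strips (numbers 4, 7 and 10) are given beside the results for the 10 root hair genes only. No line occurred at both concentrations within any of these strips, so each ratio compares different lines. At 1 and 10 mM it rests on 2 and 6 libraries in strip 4, 4 and 4 in strip 7, and 6 and 2 in strip 10.

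RHD6, RSL4, EXPA7, EXPA18, LRX1 and PRP1 lie on chromosome 1, PRP3 on chromosome 3, and RHD2, COBL9 and RHS19 on chromosome 5 of the TAIR10.1 assembly. The genes differed in the sequence just before their annotated start. A known root hair promoter element, the RHE motif, first described in EXPA7 and EXPA18, was searched for on both strands of the 250 bases upstream of each gene. It was found upstream of 5 of the 10 genes, against 207 of 27443 nuclear protein-coding genes, or 0.754%. As the motif was described in EXPA7 and EXPA18, their matches were given in advance and are no separate result. Of the 24 genes in the cell wall and secreted list below, 3 held a match (12.5%). PRP1, also named RHS7, RHS19 and many genes of that list carry the name root hair specific (RHS). Whether the motif helped to choose genes of that name was not examined, so these shares are a description and no test of enrichment. The sequences upstream of EXPA7, EXPA18, LRX1, PRP1 and PRP3 are shown to set the promoters of the expansin pair, LRX1 and the PRP pair side by side. They read 5′ to 3′ on the strand of the gene, which is the plus strand for all 5, with the match in capitals. The windows are chr1:4276255-4276504 for EXPA7, chr1:23331313-23331562 for EXPA18, chr1:4069742-4069991 for LRX1, chr1:20504651-20504900 for PRP1 and chr3:23182472-23182721 for PRP3.
EXPA7: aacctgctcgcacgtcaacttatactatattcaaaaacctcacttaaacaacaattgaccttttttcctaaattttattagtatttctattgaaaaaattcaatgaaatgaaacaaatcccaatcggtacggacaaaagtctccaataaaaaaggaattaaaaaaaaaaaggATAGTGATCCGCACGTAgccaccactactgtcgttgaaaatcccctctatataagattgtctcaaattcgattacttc
EXPA18: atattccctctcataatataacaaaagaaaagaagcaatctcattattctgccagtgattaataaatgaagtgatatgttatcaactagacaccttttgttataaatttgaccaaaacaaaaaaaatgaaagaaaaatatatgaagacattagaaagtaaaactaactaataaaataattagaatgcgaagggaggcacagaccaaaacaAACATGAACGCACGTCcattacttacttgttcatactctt
LRX1: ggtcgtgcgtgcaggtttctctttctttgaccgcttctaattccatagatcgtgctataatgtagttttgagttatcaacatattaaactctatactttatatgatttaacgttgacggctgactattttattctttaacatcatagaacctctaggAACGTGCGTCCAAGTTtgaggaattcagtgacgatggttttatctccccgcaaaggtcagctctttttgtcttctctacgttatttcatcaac
PRP1: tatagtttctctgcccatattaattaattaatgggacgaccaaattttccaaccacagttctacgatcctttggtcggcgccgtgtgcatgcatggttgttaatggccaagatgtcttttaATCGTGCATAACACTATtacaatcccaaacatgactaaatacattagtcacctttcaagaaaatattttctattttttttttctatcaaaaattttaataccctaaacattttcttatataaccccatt
PRP3: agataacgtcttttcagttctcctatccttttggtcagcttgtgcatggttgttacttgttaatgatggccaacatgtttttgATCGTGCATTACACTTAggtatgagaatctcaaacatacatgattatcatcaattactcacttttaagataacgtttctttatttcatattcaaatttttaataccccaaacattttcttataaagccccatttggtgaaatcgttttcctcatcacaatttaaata

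The match read along the gene's own strand in EXPA7 and EXPA18 and along the other strand in LRX1, PRP1 and PRP3. Its first base lay 78 bases before the annotated start of EXPA7 and 40 before that of EXPA18. The window of EXPA18 overlaps the antisense locus AT1G62978, which had no count in any library. No match was found in these windows of RHD6, RSL4, RHD2, COBL9 and RHS19. The G-box, spelled CACGTG on both strands, was found in none of the 10 windows and in 6.49% of all promoters of the same length.

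Across the 13 lines, 8 of the 10 root hair genes were lower at 10 mM than at 1 mM KNO3 and 2 were higher, by edgeR's quasi-likelihood test with a Benjamini-Hochberg adjusted p below 0.05. RHS19, LRX1, PRP3, RHD6 and EXPA18 fell the most, COBL9 and EXPA7 fell by less, and RHD2 by the least. RSL4 and PRP1 rose. The response was wide in these roots: over all 19664 genes, 30.4% were called lower and 34.1% higher. The median log2 change of the 10 genes was -0.48, against 0.02 over all genes tested. Only RHS19 changed by 2-fold or more, as did 6.37% of all genes. In the 24 libraries of the mixed strips, with strip as a covariate and no term for line, 7 were called lower and RSL4 higher, where 36.1% of all genes were called in either direction, and RHD2 and PRP1 were not called. In whole roots, fewer hair cells and less RNA per hair cell cannot be told apart.

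**Figure D1:**
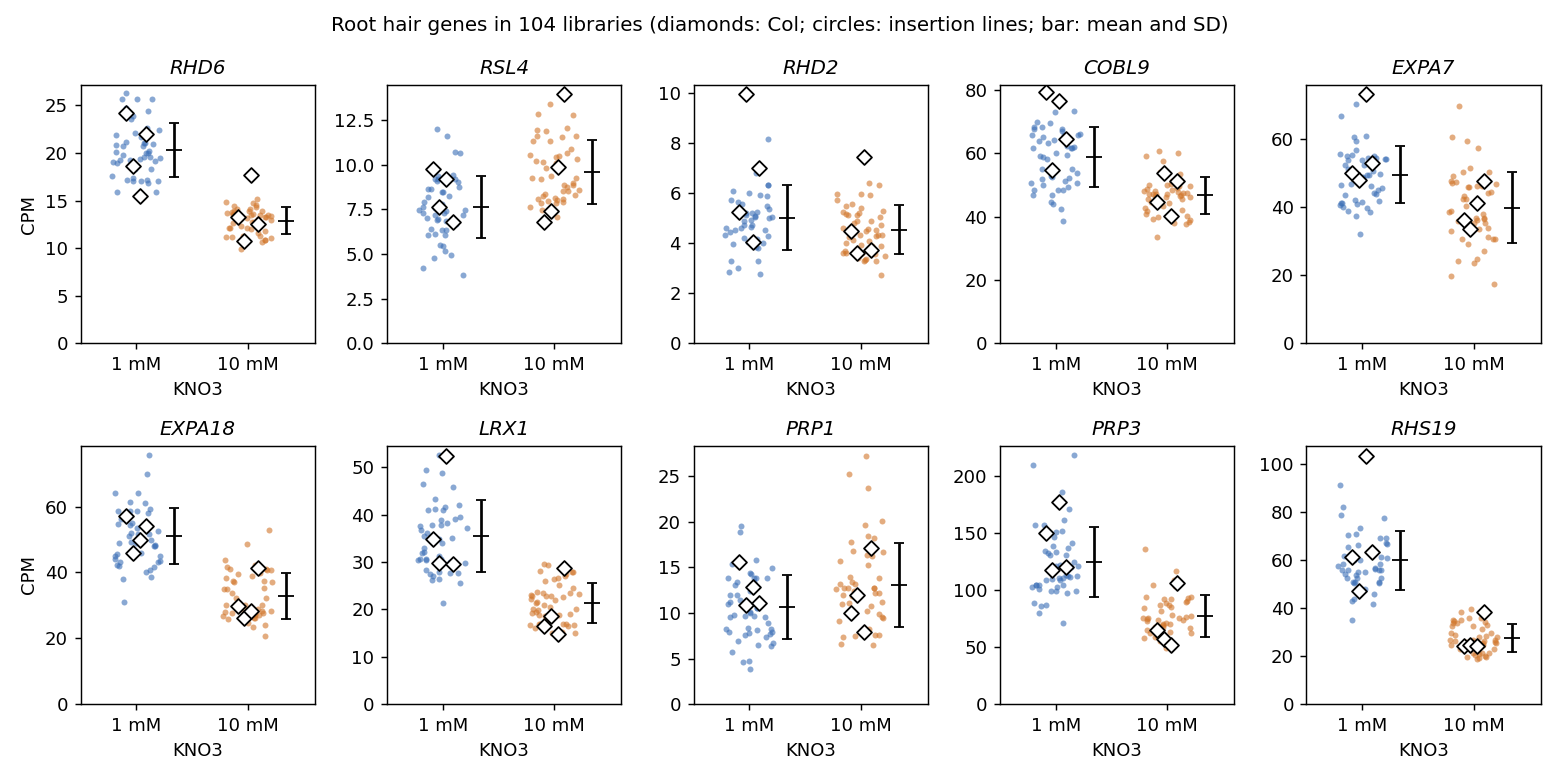
Level of each root hair gene in CPM (vertical axis, from 0) in every library at 1 and 10 mM KNO3, with Col as diamonds, the 12 insertion lines as circles and a bar for the mean and SD of 52 libraries. RHS19 shows the clearest separation between the concentrations, while RHD2 overlaps almost fully and RSL4 and PRP1 lie higher at 10 mM.

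RHD6, the transcription factor that starts hair outgrowth, ranged from 15.5 to 26.3 CPM at 1 mM (median 19.97, n = 52) and from 9.88 to 17.7 CPM at 10 mM (median 13.1, n = 52). The ranges barely overlapped, with 51 of 52 libraries at 10 mM below the lowest at 1 mM. It fell from a mean of 20.3 ± 2.88 to 12.9 ± 1.45 CPM (SD, n = 52 each), 1.58-fold on the fitted scale (log2 change -0.66 ± 0.04 SE, edgeR adjusted p = 6.01e-29). The fall was called in all 13 lines, with log2 changes from -0.80 in GABI_868_E02 to -0.51 in SALK_146141. Over all gene and line pairs, 9.44% were called lower and 8.54% higher. Within the mixed strips the log2 ratio of the means was between -0.64 and -0.45.

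RSL4, a transcription factor of the same family that sets how long hairs grow, went the other way. It ranged from 3.82 to 12.0 CPM at 1 mM (median 7.49, n = 52) and from 6.80 to 14.0 CPM at 10 mM (median 9.23, n = 52). The ranges overlapped widely, although 46 of 52 libraries at 10 mM lay above the median at 1 mM. The mean rose from 7.64 ± 1.76 to 9.58 ± 1.80 CPM (SD, n = 52 each; log2 change 0.33 ± 0.06 SE, edgeR adjusted p = 2.73e-06), and within the mixed strips the log2 ratio of the means was between 0.27 and 0.60. The fitted change was positive in all 13 lines and was called in SALK_146141 alone. There the 4 libraries at 1 mM held 6.96, 4.97, 6.15 and 6.06 CPM and those at 10 mM held 10.67, 7.90, 8.04 and 11.6 CPM. These groups did not overlap, and the log2 change was 0.68 ± 0.23 (edgeR adjusted p = 0.0237), in a line where 22.2% of all genes were called in either direction. The call was lost with run 1 alone (1.27, edgeR adjusted p = 0.0556), with run 2 alone (0.46, edgeR adjusted p = 0.198) and without replicate 1, 2 or 4 (0.70, 0.65 and 0.56).

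Within libraries, the log2 ratio of RSL4 to RHD6, with 1 CPM added to each, was -1.32 ± 0.35 at 1 mM and -0.40 ± 0.28 at 10 mM (SD, n = 52 each). This ratio and the 2 others below were chosen after the values of the genes were seen and restate them as a description, with no test.

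RHD2, the NADPH oxidase RBOHC whose reactive oxygen feeds calcium entry at the hair tip, was the least certain of the set. It ranged from 2.76 to 9.96 CPM at 1 mM (median 4.91, n = 52) and from 2.75 to 7.46 CPM at 10 mM (median 4.40, n = 52). The ranges overlapped almost wholly, and a library held between 14 and 121 tags of the gene, with a median of 39. The means were 5.01 ± 1.3 and 4.54 ± 0.98 CPM (SD, n = 52 each), and the log2 change was -0.15 ± 0.07 SE (edgeR adjusted p = 0.0467). It was called in none of the 13 lines by edgeR, and at an unadjusted p below 0.05 in 1. The direction turned with strip as a covariate, to 0.10 (edgeR adjusted p = 0.641), and with run 2 alone, to 0.04 (edgeR adjusted p = 0.684), while run 1 alone gave -0.37. Within mixed strips 4, 7 and 10 the log2 ratio of the means was 0.08, -0.02 and 0.31.

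COBL9, a glycosylphosphatidylinositol-anchored protein of the COBRA family needed for hair elongation, ranged from 38.5 to 79.3 CPM at 1 mM (median 59.8, n = 52) and from 33.7 to 60.9 CPM at 10 mM (median 46.9, n = 52). The lower part of the 1 mM range was shared with the 10 mM range, although 50 of 52 libraries at 10 mM lay below the median at 1 mM. The mean fell from 58.8 ± 9.39 to 46.7 ± 5.76 CPM (SD, n = 52 each; log2 change -0.33 ± 0.04 SE, edgeR adjusted p = 2.76e-11). The change was negative in 13 lines and called in 5: Col, GABI_699B09, SALK_015182, SALK_035980 and SALK_100002. Within the mixed strips the log2 ratio of the means was between -0.40 and -0.13.

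EXPA7 and EXPA18 encode expansins, proteins that loosen the cell wall, and both are known as hair cell genes. EXPA18 ranged from 31.1 to 75.7 CPM at 1 mM (median 50.5, n = 52) and from 20.6 to 53.0 CPM at 10 mM (median 30.1, n = 52). Nearly all 10 mM libraries, 51 of 52, lay below the median at 1 mM. The mean fell from 51.0 ± 8.48 to 32.9 ± 7.004 CPM (SD, n = 52 each), 1.55-fold (log2 change -0.64 ± 0.05 SE, edgeR adjusted p = 7.36e-19), and it was called lower in every line except SALK_015182, where the change was -0.45. Within the mixed strips the log2 ratio of the means was between -0.86 and -0.61.

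EXPA7 ranged from 32.1 to 73.0 CPM at 1 mM (median 49.6, n = 52) and from 17.3 to 69.6 CPM at 10 mM (median 38.7, n = 52). The ranges overlapped over most of their width. The mean fell from 49.5 ± 8.24 to 39.8 ± 10.35 CPM (SD, n = 52 each; log2 change -0.32 ± 0.06 SE, edgeR adjusted p = 7.92e-06). With strip as a covariate the call was lost (log2 change -0.24, edgeR adjusted p = 0.101), and within mixed strips 4, 7 and 10 the log2 ratio of the means was -0.08, -0.67 and 0.0063. The change was negative in all 13 lines but was called in none by edgeR, with 2 lines at an unadjusted p below 0.05.

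Within libraries, the log2 ratio of EXPA7 to EXPA18 was -0.04 ± 0.25 at 1 mM and 0.25 ± 0.28 at 10 mM (SD, n = 52 each). AT1G12570, which overlaps EXPA7 on the other strand, was at 0.07 CPM at 1 mM. The strand setting of the counting is not given in the sources used here, so tags of overlapping genes cannot be told apart.

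LRX1, a leucine-rich repeat extensin that organises the hair wall, ranged from 21.4 to 52.7 CPM at 1 mM (median 34.9, n = 52) and from 14.8 to 29.7 CPM at 10 mM (median 21.2, n = 52). Every 10 mM library lay below the median at 1 mM, and 40 of 52 libraries at 1 mM lay above the highest at 10 mM. The mean fell from 35.5 ± 7.61 to 21.4 ± 4.30 CPM (SD, n = 52 each), 1.66-fold (log2 change -0.73 ± 0.06 SE, edgeR adjusted p = 1.35e-19). LRX1 was called lower in 10 lines, and in SALK_015182, SALK_035980 and SALK_146141 its log2 changes of -0.55, -0.56 and -0.51 were not called. Within the mixed strips the log2 ratio of the means was between -1.33 and -0.43.

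PRP3 and PRP1 encode related proline-rich wall proteins of root hairs. PRP3 ranged from 70.8 to 218 CPM at 1 mM (median 119, n = 52) and from 49.4 to 136 CPM at 10 mM (median 74.3, n = 52). All but 1 of the 10 mM libraries lay below the median at 1 mM. The mean fell from 125 ± 30.8 to 77.3 ± 18.0 CPM (SD, n = 52 each), 1.62-fold (log2 change -0.69 ± 0.06 SE, edgeR adjusted p = 2.09e-18). It was called lower in 9 lines, and the 13 log2 changes ran from -1.02 in Col to -0.48 in SALK_146141. Within the mixed strips the log2 ratio of the means was between -1.04 and -0.45.

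PRP1 ranged from 3.89 to 19.5 CPM at 1 mM (median 10.29, n = 52) and from 6.54 to 27.1 CPM at 10 mM (median 12.3, n = 52). The ranges overlapped over most of their width, and 36 of 52 libraries at 10 mM lay above the median at 1 mM. The mean rose from 10.6 ± 3.51 to 13.1 ± 4.59 CPM (SD, n = 52 each; log2 change 0.28 ± 0.09 SE, edgeR adjusted p = 0.00443). The call was lost with run 1 alone, where the log2 change was 0.06, without replicate 1 (0.19), without replicate 2 (0.15) and in the mixed strips (0.50, edgeR adjusted p = 0.0678). Within mixed strips 4, 7 and 10 the log2 ratio of the means was 0.93, 0.85 and -0.27, so the strips did not share a direction. The change was negative in 5 of 13 lines, Col among them at -0.10, and it was called higher in GABI_699B09 alone.

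In GABI_699B09 the 4 libraries held 9.98, 3.89, 19.5 and 11.4 CPM of PRP1 at 1 mM and 27.1, 17.7, 13.8 and 25.2 CPM at 10 mM. The groups overlapped through the library of 19.5 CPM at 1 mM. The log2 change was 0.91 ± 0.30 (edgeR adjusted p = 0.0245), in a line where 7.67% of all genes were called higher. The call was lost with run 1 alone (0.23, edgeR adjusted p = 0.893) and without replicate 1, 2 or 4 (0.71, 0.70 and 0.81). The difference between this response and that of Col, 1.00 ± 0.43, was not called (edgeR adjusted p = 0.875).

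The log2 ratio of PRP1 to PRP3 within libraries was -3.47 ± 0.33 at 1 mM and -2.51 ± 0.30 at 10 mM (SD, n = 52 each). The last 300 bases of the PRP1 and PRP3 transcripts match each other at between 72.9 and 79.5% identity, and how the counting treated a tag that fits both is not given in the sources used here.

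RHS19, a peroxidase of the kind that crosslinks or loosens wall polymers, had the widest separation. It ranged from 35.0 to 103 CPM at 1 mM (median 58.0, n = 52) and from 18.7 to 39.6 CPM at 10 mM (median 26.4, n = 52), and 51 of 52 libraries at 1 mM lay above the highest at 10 mM. The mean fell from 59.8 ± 12.2 to 27.7 ± 5.80 CPM (SD, n = 52 each), 2.15-fold (log2 change -1.11 ± 0.06 SE, edgeR adjusted p = 2e-32). It was called lower in all 13 lines, from -1.30 in Col to -0.93 in SALK_094437C. In each mixed strip it was lower at 10 mM as well, with log2 ratios of the means between -1.26 and -1.12. AT5G67410, which overlaps it on the other strand, was at 1.48 ± 0.63 and 1.68 ± 0.55 CPM (SD, n = 52 each). Within the last 300 bases of the RHS19 transcript, 91 aligned bases match AT3G49960 at 82.4% identity, so tags may be shared between these genes.

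**Figure D2:**
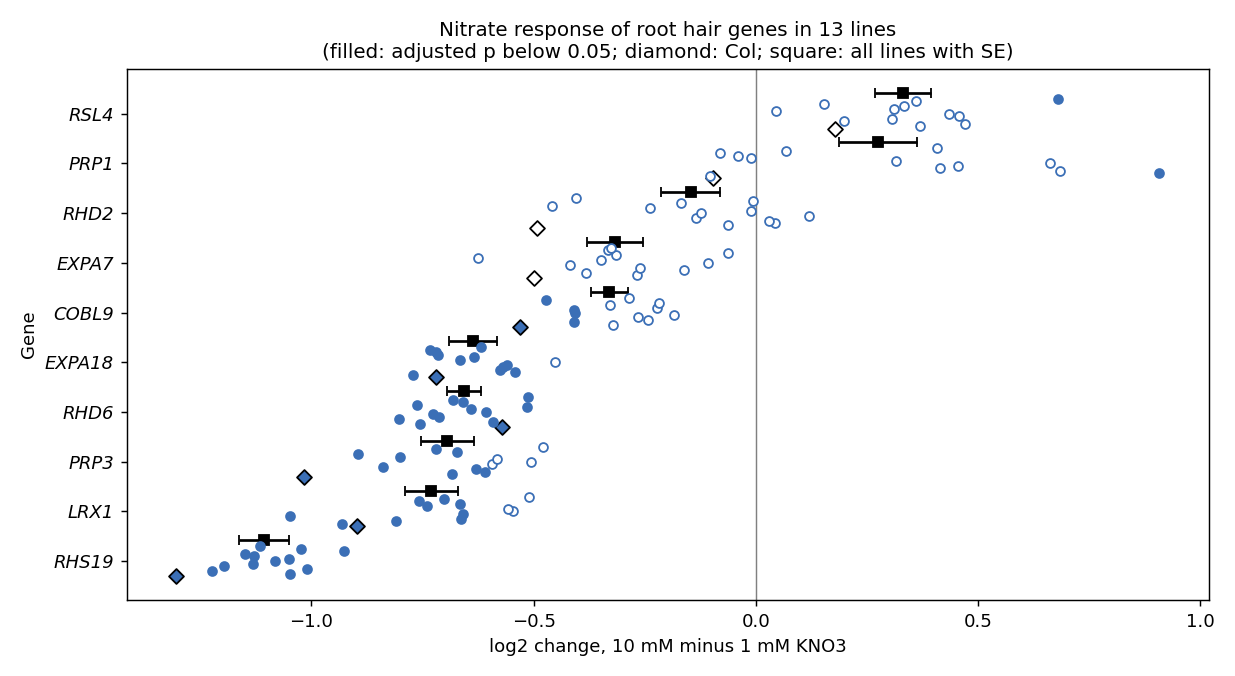
Fitted log2 change from 1 to 10 mM KNO3 (horizontal axis) of each root hair gene (vertical axis) in the 13 lines, filled where the adjusted p was below 0.05, with Col as a diamond and the mean over all lines as a square with its SE. RHD6 and RHS19 are filled in all 13 lines, and RSL4 lies to the right of 0 in all of them.

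Counted by gene and line, 62 of 130 pairs were called lower and 2 higher, where 9.44% and 8.54% of pairs over all genes were. Run 1 alone gave 29 pairs lower and 0 higher, strip as a covariate gave 8 higher, and 0 were higher without replicate 1, 2 or 4. All 4 libraries at 10 mM lay below all 4 at 1 mM in 54 of the 130 pairs, against 9.73% of pairs over all genes, and above them in 2, both of RSL4, against 9.07%. RHS19 contributed 13 of the 54, RHD6 12, LRX1 11, PRP3 8 and EXPA18 6. COBL9 contributed 2, EXPA7 and RHD2 1 each, and RSL4 and PRP1 none.

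In Col alone, 6 of the 10 genes were called lower and none higher, where 12.6% of all genes were called lower and 11.7% higher. Col held 61.4, 47.0, 103 and 63.2 CPM of RHS19 in replicates 1 to 4 at 1 mM and 24.1, 24.6, 24.4 and 38.4 CPM at 10 mM. For PRP3 the 4 values were 150, 118, 178 and 120 CPM at 1 mM and 65.2, 57.1, 51.96 and 106 CPM at 10 mM. Neither gene's groups overlapped, and the log2 changes were -1.30 ± 0.20 for RHS19 (edgeR adjusted p = 2.03e-07) and -1.02 ± 0.22 for PRP3 (edgeR adjusted p = 0.000144).

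LRX1 in Col was at 34.8, 29.8, 52.4 and 29.5 CPM at 1 mM and at 16.6, 18.7, 14.8 and 28.7 CPM at 10 mM, without overlap. Its log2 change of -0.90 ± 0.22 (edgeR adjusted p = 0.00077) fell to -0.57 without replicate 3 and was then not called (adjusted p = 0.117). EXPA18, RHD6 and COBL9 were called lower as well, at -0.72, -0.57 and -0.53, and the call of COBL9 was lost without replicate 3 (-0.41, edgeR adjusted p = 0.116). RHD2 and EXPA7 had log2 changes of -0.49 and -0.50 that were not called (edgeR adjusted p = 0.107 and 0.0984), and RHD2 was called lower without replicate 3, at -0.93. RSL4 and PRP1 in Col, at 0.18 and -0.10, were not called either (edgeR adjusted p = 0.616 and 0.867), and both changed sign when a replicate was left out, RSL4 without replicate 4 (-0.14) and PRP1 without replicate 1 or 3 (0.06 each). With run 1 alone the Col calls of RHD6 and COBL9 were lost (edgeR adjusted p = 0.0978 and 0.0842).

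The nitrate responses were next compared with that of Col in each insertion line. All 12 comparisons share the Col libraries. No difference of response was called for any of the 120 gene and line pairs by edgeR, where 0.00212% of pairs over all genes were called, and 1 pair had an unadjusted p below 0.05. In an F test over all 13 lines, no root hair gene differed in its response (edgeR adjusted p = 1 for each), as for all but 0.0102% of genes. The differences from Col were up to 0.61 for RHD2, in SALK_012253, and up to 1.00 for PRP1, in GABI_699B09. For RHD6 they lay between -0.23 and 0.06, and for RHS19 between 0.08 and 0.38.

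The level of each root hair gene in the insertion lines was set against the same Col libraries. Averaged over the concentrations, 1 of 120 gene and line pairs was called, where 1.33% of pairs over all genes were. That pair was PRP3 in GABI_699B09. At 1 mM no pair was called by edgeR, where 0.746% over all genes were, and 11 pairs had an unadjusted p below 0.05. At 10 mM 1 pair was called, again PRP3 in GABI_699B09, where 0.588% over all genes were. In the F test for any difference in level among the 13 lines, PRP3 was the only root hair gene called (F = 2.69, edgeR adjusted p = 0.0391), as were 10.84% of all genes.

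PRP3 in GABI_699B09 stood at 137, 111, 210 and 218 CPM at 1 mM and at 109, 93.7, 104.01 and 136 CPM at 10 mM. At 10 mM 3 of the 4 Col libraries, between 51.96 and 65.2 CPM, lay below all of these, and Col replicate 4, at 106 CPM, lay among them. The groups at 10 mM therefore overlapped. Over both concentrations PRP3 was higher than in Col by 0.46 ± 0.15 on the log2 scale (edgeR adjusted p = 0.0314), and at 10 mM by 0.66 ± 0.22 (edgeR adjusted p = 0.0472). The call over both concentrations was lost without replicate 1, 3 or 4, where the log2 difference was 0.51, 0.42 and 0.43, and with run 2 alone. At 10 mM it was lost without replicate 1, 2 or 3 and with either run alone, and the F test over lines was not passed without any one of the 4 replicates, with either run alone or with limma-voom. PRP1 in the same line at 10 mM was higher by 0.84 ± 0.30, which was not called (edgeR adjusted p = 0.0884). Of the other 8 genes, EXPA18, LRX1, COBL9 and RHS19 had their highest fitted difference from Col over both concentrations in GABI_699B09, at 0.26, 0.17, 0.03 and 0.18, none of them called. RHD6, RSL4, RHD2 and EXPA7 had theirs in other lines.

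**Figure D3:**
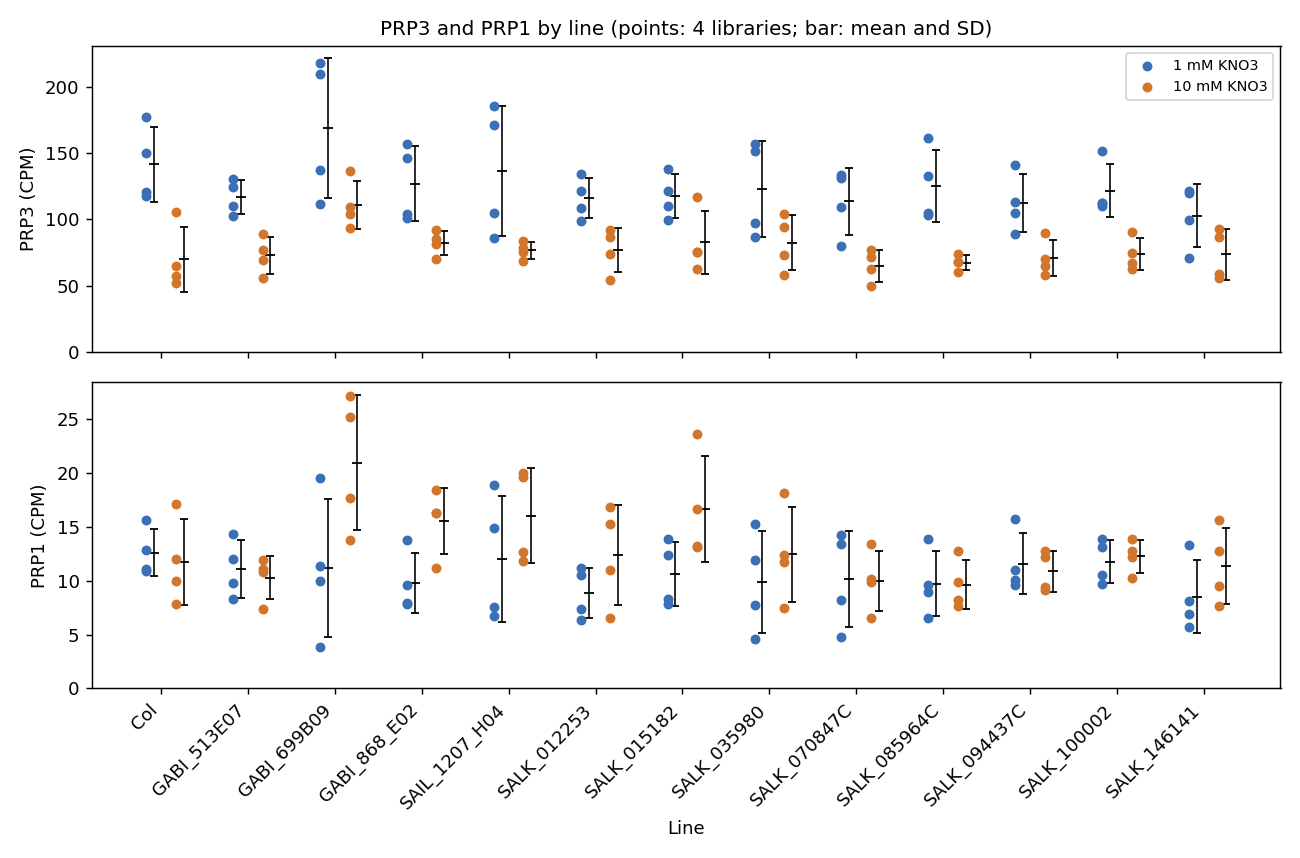
Levels of PRP3 (top) and PRP1 (bottom) in CPM, from 0, for each line at 1 and 10 mM KNO3, with 4 libraries as points and a bar for their mean and SD. GABI_699B09 holds the highest mean of PRP3 at both concentrations and of PRP1 at 10 mM.

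RHD2 in GABI_699B09 is set beside FER (AT3G51550), the receptor kinase known to act above the NADPH oxidase in root hairs. FER stood between 30.6 and 57.0 CPM in the 8 libraries of GABI_699B09 (median 39.6) and between 67.5 and 244 CPM in the other 96. The line's libraries lay below all others, and the log2 difference from Col was -1.74 ± 0.13 (edgeR adjusted p = 5.44e-20). RHD2 differed from Col by -0.33 ± 0.16 in that line, which was not called (edgeR adjusted p = 0.219). It was below Col in all 12 lines, which share the Col libraries, with log2 differences from -0.41 to -0.15 (median -0.28), and was called in none. Among 64 tested genes of the root hair lists described below, 5 were called against Col in GABI_699B09, where 11.6% of all genes were. FER and LRL3, a basic helix-loop-helix factor (log2 difference -0.62), were lower, and COW1 (0.36), RHD4 (0.23) and RHS13 (0.58) were higher. These 5 were named after their values were seen.

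Other genes of root hair biology were counted in 4 lists. These lists and the tissue markers below were likewise chosen with earlier results of these data known. Over all genes tested, 30.4% were called lower and 34.1% higher. The list of cell wall and secreted proteins also holds other kinds, such as the receptor kinase PERK13 (RHS10) and the permease RHS15. Of its 23 tested genes, 22 were called lower over all lines and none higher, with a median log2 change of -0.62. EXT10 and EXT6, extensins of the wall, had the largest falls, at -1.48 and -1.33, and RHS15 fell by 1.29 on the log2 scale. Extensins resemble one another, so tags may be shared between them. XTH14, an enzyme that cuts and rejoins xyloglucan, fell from 164 ± 32.0 to 97.5 ± 18.3 CPM (SD, n = 52 each; log2 change -0.75). EXT12 was the gene not called, at 0.08 (edgeR adjusted p = 0.411). AT1G05240 was listed at 0 in every library and was not tested.

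The signalling and tip growth genes were split. Of 23 tested, 11 were called lower, 2 higher and 10 neither, with a median log2 change of -0.13. The shares over all genes were 30.4% lower and 34.1% higher. OXI1, a kinase activated by hydrogen peroxide, went from 24.2 ± 5.33 to 6.51 ± 2.80 CPM (SD, n = 52 each; log2 change -1.92 ± 0.08). AHA7, a plasma membrane proton pump, fell from 50.7 ± 9.17 to 22.1 ± 3.89 CPM (log2 change -1.20 ± 0.05). COW1, a phosphatidylinositol transfer protein, had a log2 change of -0.74, and the calcium channel gene CNGC5 and the actin gene ACT2 rose by 0.20 and 0.18.

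Among the transcription factors, 3 of 7 tested were called lower and 2 higher, with a median log2 change of 0.06. These are counts of few genes, beside 30.4% lower and 34.1% higher over all genes. AT2G14760, low at 1.92 ± 0.77 and 0.79 ± 0.34 CPM, had a log2 change of -1.26, RSL2 of -0.25 and LRL2 of -0.24. LRL1 rose by 0.37 and OBP4, a factor known to repress hair growth when raised, by 0.95, from 9.31 ± 2.28 to 18.0 ± 5.02 CPM. RSL1 and AT5G43175 were too low to test.

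Epidermal patterning genes, which set hair and non-hair files before RHD6 acts, were called lower in 3 of 11, higher in 4 and neither in 4, with a median log2 change of 0.03. These counts were near the shares over all genes, 30.4% lower and 34.1% higher. ETC1, a small MYB protein that promotes hair fate, went from 14.5 ± 3.87 to 5.78 ± 2.07 CPM (log2 change -1.32 ± 0.09). The receptor kinase gene SCM fell by 0.43 and ATMYC1 by 0.23 on the log2 scale. The non-hair factors WER, GL2 and MYB23 rose by 0.20, 0.17 and 0.32. CPC, TRY, GL3 and EGL3 were not called, at 0.09, -0.09, -0.02 and 0.03. In Col alone, 2 of the 11 genes were called lower and 0 higher, where 12.6% and 11.7% of all genes were.

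**Figure D4:**
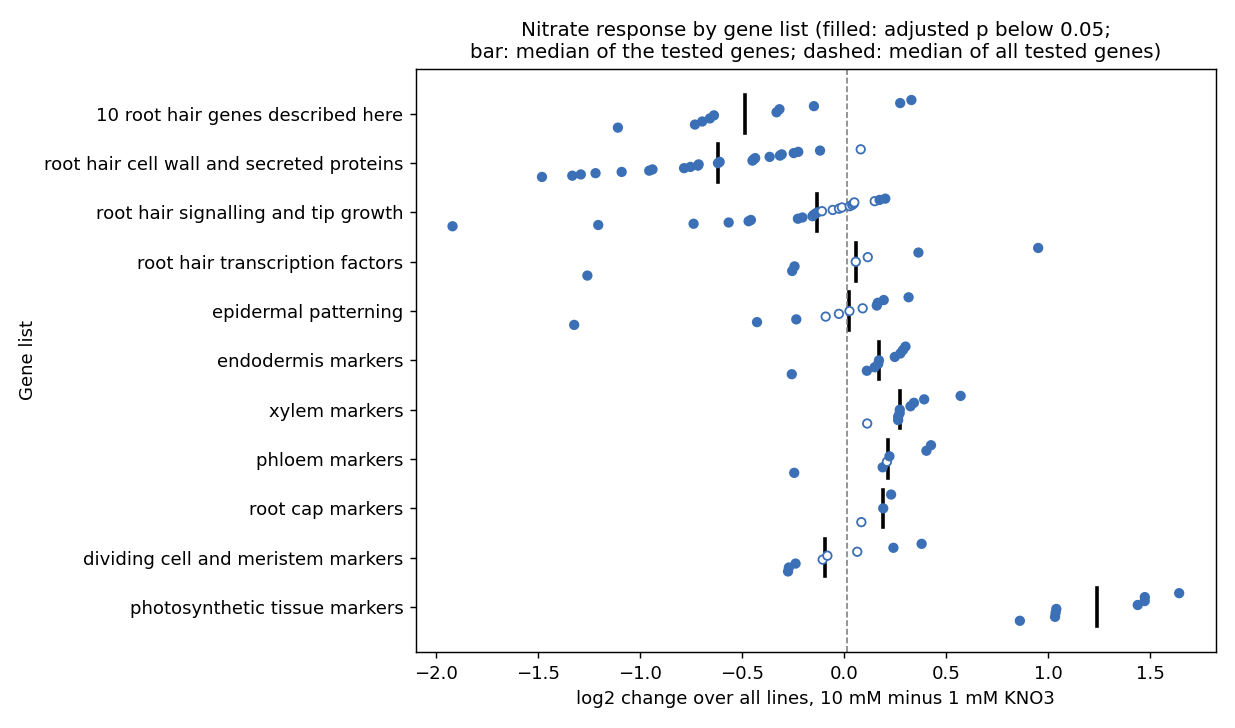
Fitted log2 change from 1 to 10 mM KNO3 over all lines (horizontal axis) of each tested gene by list (vertical axis), filled where the adjusted p was below 0.05, with a bar at the list's median and a dashed line at the median of all genes. The cell wall and secreted list lies to the left of 0 except for EXT12, and the photosynthetic list lies to the right.

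Markers of other tissues were counted in the same way, where 30.4% of all genes were called lower and 34.1% higher. Of 8 photosynthetic genes all 8 were called higher at 10 mM, with a median log2 change of 1.24, and their summed level was between 20.6 and 77.6 CPM at 1 mM and between 48.8 and 168 CPM at 10 mM. Endodermis markers were called higher in 8 of 9 and lower in 1 (median 0.17), with summed levels between 561 and 907 CPM and between 634 and 951 CPM. Xylem markers were called higher in 8 of 9 (median 0.27), with summed levels between 421 and 719 CPM and between 548 and 859 CPM. Phloem markers were called higher in 4 of 6, root cap markers in 2 of 3 tested and dividing cell markers in 2 of 8, with 1, 0 and 3 called lower. The counts of dividing cell markers were near the shares over all genes. No marker of these lists was at 0 in every library. Their part in the fall of the root hair genes was not tested. The 10 root hair genes summed to between 282 and 596 CPM at 1 mM and between 211 and 417 CPM at 10 mM.

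Libraries of the same line and concentration also varied together in these genes. Deviations of log2 CPM from the group mean were correlated over all libraries, which share strips and depth, for the 45 gene pairs. Pearson's r ran from -0.28 to 0.77 with a median of 0.26, and 11 pairs were above 0.5. LRX1 with PRP3 was highest at 0.77, followed by PRP1 with PRP3 at 0.73 and PRP3 with RHS19 at 0.68. Tags may be shared between PRP1 and PRP3, whose transcript ends resemble each other, and their part in this r was not tested. The expansins EXPA7 and EXPA18 reached 0.64. PRP3 had the highest mean r with the 9 others, 0.47, and RHD2 the lowest, -0.07. The regulators RHD6 and RSL4 were at 0.06 with each other, and their mean r with the 9 others was 0.16 and 0.17.

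**Figure D5:**
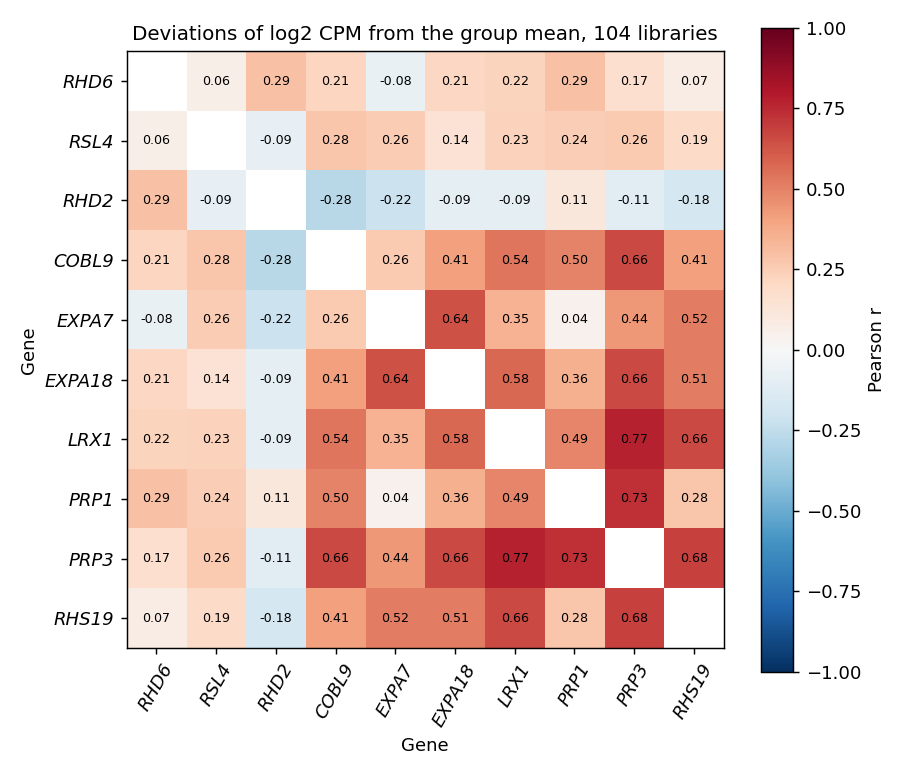
Pearson correlation (colour and printed value) between each pair of root hair genes of the deviation of log2 CPM from the group mean, over all libraries. The wall genes COBL9, EXPA18, LRX1, PRP3 and RHS19 form the block of higher values, while RHD2 is near or below 0 with most genes.

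The genes most like the set were sought among 14813 others with a mean of at least 5 CPM, by the correlation of their deviations with the mean standardised deviation of the 10 genes over all libraries. AT1G34510 came first (r = 0.79), then UCC3 (0.76), AT1G30870 (0.73), XTH14 (0.73), FLA6 (0.73), AT4G25790 (0.72), PERK13 (0.71), AT4G37220 (0.70), AGP3 (0.69) and RHS13 (0.69). Of these 10, XTH14, PERK13 (listed as RHS10) and RHS13 are in the root hair lists, as are 14 of the first 100, while 53 of the 14813 are. By the means of the 26 groups, AT5G04960 (r = 0.95), XTH14 (0.95), AT3G13930 (0.95), PIRL9 (0.94) and CYP702A5 (0.94) were the most alike.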

How the data were processed

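Read counts per gene were deposited as 208 tables, 1 for each library and run. They are whole-number counts without normalisation, made by the authors with FastQC, Bowtie, SAMtools, HTSeq and limma on the TAIR10 build, per the submitters' processing notes, and the strand setting is not given in the sources used here. The 2 runs of a library were added up, for 52 libraries per concentration. Organelle genes (279 loci) were dropped, since all their counts are 0 in run 2. No row lacked a locus name. Libraries of a group differed beyond counting error (chi-square per degree of freedom of at least 4.66 in 156 pairs). Tags carry no molecular identifiers.

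The main test was edgeR's quasi-likelihood test (edgeR 4.0.16 in R 4.3.3) with TMM factors and a coefficient per group (26 groups), on genes kept by filterByExpr at a minimum count of 10. Adjusted p-values are Benjamini-Hochberg over 19664 genes, and those below 0.05 are said to be called. The main test holds no term for strip or replicate number and takes the libraries as independent. Alternatives used limma 3.58.1 and DESeq2 1.42.0. The steps were tested on simulated data. The 10 genes and the lists were chosen with earlier results of these data known. Names were given to all 10 genes, to the 3 largest called rises and falls of each root hair list, and to the 10 and 5 most alike genes. EXT12, CPC, TRY, GL3, EGL3 and the genes named for GABI_699B09 were added after their values were seen. Positions and promoters were read from TAIR10.1 (RefSeq), and no coordinates were moved between builds.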

Additional observations from a re-analysis of the deposited data

Results flagged for a closer look

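In groups of 4 libraries, 13 of 260 gene and group combinations held a library far from the others, which is 5%, and chance flags about 5%. RHS19 had 4: Col at 10 mM replicate 4 at 38.4 CPM against 24.1 to 24.6 in the others, SALK_012253 at 10 mM replicate 4 at 39.6 CPM (others 23.1 to 25.9), SALK_012253 at 1 mM replicate 3 at 78.8 CPM (others 54.9 to 56.5) and SALK_094437C at 10 mM replicate 4 at 38.3 CPM (others 24.9 to 26.8). The RHS19 libraries flagged at 10 mM were all replicate 4 and all in strip 12, and a shared source of their values was not tested. RHD6 stood at 11.3 CPM in SAIL_1207_H04 at 10 mM replicate 3 (others 13.5 to 13.8) and at 25.7 CPM in SALK_100002 at 1 mM replicate 4 (others 20.9 to 21.0). The latter library also held PRP3 at 151 CPM, against 110 to 112 in the others. RSL4 was at 13.4 CPM in SALK_070847C at 10 mM replicate 1 (others 8.26 to 8.85). RHD2 was at 3.62 CPM in GABI_513E07 at 10 mM replicate 2 (others 4.88 to 5.13) and at 5.27 CPM in SALK_146141 at 10 mM replicate 3 (others 3.58 to 3.62). EXPA7 was at 44.0 CPM in SAIL_1207_H04 at 1 mM replicate 1 (others 54.5 to 55.1) and at 24.8 CPM in SALK_015182 at 10 mM replicate 2 (others 46.1 to 50.1). EXPA18 was at 40.8 CPM in SALK_035980 at 10 mM replicate 4 (others 26.1 to 28.4).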

How the results depend on the processing

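Over 16 alternatives (RLE factors, DESeq2, limma-voom, no low-count filter, strip as a covariate, replicate block, each run alone, each replicate left out, 2 libraries whose file names carry each other's line exchanged or left out, the mixed strips, and the 12 lines other than GABI_699B09, added after seeing the data), RHD6, RSL4, COBL9, EXPA18, LRX1, PRP3 and RHS19 stayed called in the same direction over all lines. RHD2 turned positive with strip as a covariate (0.10), run 2 alone (0.041) and the mixed strips (0.11), and its call was lost in 9 alternatives in all. In Col, RSL4 turned to -0.062 with run 1 alone and ran from -0.14 to 0.36 when a replicate was left out (negative without replicate 4), and PRP1 from -0.37 to 0.065 (positive without replicate 1 or 3). Run 1 alone called 1 member higher over all lines, 29 pairs lower and 0 higher within lines, 0 pairs against Col at a concentration and 0 genes for level among lines. Run 2 alone gave 0 pairs against Col over both concentrations and 0 genes for level, as limma-voom did for level (0). Strip as a covariate gave 8 pairs higher within lines, 2 against Col over both concentrations, 3 at a concentration and 3 genes for level. The mixed strips gave 1 member higher. Leaving out a replicate gave 1 to 2 members higher over all lines, 0 to 2 pairs higher within lines, 0 to 1 against Col over both concentrations, 0 to 1 at a concentration and 0 genes for level. The cause of these shifts was not tested.

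Replicate numbers did not pair libraries across the concentrations. Over 52 pairs with the same line and number, r was between -0.213 and 0.143, and 8 libraries correlated best with their own number. These pairs cannot show whether lines at the same concentration vary together by replicate number or strip, which was not tested. At 10 mM, EXPA18 was highest in replicate 4 in every line except SAIL_1207_H04 and SALK_012253. Col, for example, held 30.0, 26.2, 28.4 and 41.5 CPM in replicates 1 to 4. For RHD6 the highest replicate varied among lines. The SE and adjusted p over all lines take no account of such shared variation and may be too small. The replicate block brought EXPA7 in Col past the threshold (-0.50, edgeR adjusted p = 0.0433), moved the pairs called lower within lines from 62 to 72 with none lost, and changed no call over all lines.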
